A study of Mus musculus with 4 samples.

Results

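The D-type cyclins Ccnd2 and Ccnd3, their partner kinase Cdk6 and the cyclin-dependent kinase inhibitors Cdkn1a (p21) and Cdkn1b (p27) were described through the regions of convergent transcription that lie at their loci. The deposited region lists name no genes, so members were found by position. Every region of any library that overlapped 1 of 5 windows of the mouse build mm9 was taken: chr6:127050000-127130000 for Ccnd2, chr17:47620000-47750000 for Ccnd3, chr5:3320000-3550000 for Cdk6, chr17:29205000-29260000 for Cdkn1a and chr6:134850000-134895000 for Cdkn1b. The 4 libraries held 94 such calls, which merged into 34 regions of the 20175 in the series. These were 2 at Ccnd2, 14 at Ccnd3, 10 at Cdk6, 4 at Cdkn1a and 4 at Cdkn1b, and all 34 lay wholly inside their window. No mm9 gene models were used here, so whether a region is exonic, intronic or in a neighbouring gene was not determined. In the RefSeq table of GRCm38, Ccnd3 overlaps Bysl and lies near Taf8 and Med20, and Ccnd2 overlaps 9330179D12Rik. Cdk6 overlaps Gm36470 and Gm29868, and its nearest protein-coding neighbours are LOC620639 and Fam133b. Those of the others are Tigar and Parp11 for Ccnd2, Srsf3 and Rab44 for Cdkn1a, and Gpr19 and Apold1 for Cdkn1b.

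Cells decide in G1 whether to copy their DNA again. D-type cyclins are made in response to mitogens and activate Cdk4 and Cdk6, which phosphorylate the retinoblastoma protein and so release E2F factors that drive entry into S phase. Cdkn1a, a target of p53, and Cdkn1b, which is kept high in resting lymphocytes, bind cyclin-kinase complexes and restrain them. Cyclin D2 and cyclin D3 are the D-type cyclins known for their use in B cells.

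Nascent RNA was measured by global run-on sequencing, a method that labels the RNA of polymerases already engaged on DNA in purified nuclei and reads it with its strand. All cells were primary splenic B cells of Fucci-EGFP+ C57BL/6 mice, which carry a fluorescent cell cycle reporter. They were stimulated in vitro by LPS, IL4 and Rp105. The unsynchronized group has 2 libraries of cells sampled across the cycle. The early G1 group has 2 libraries of cells that met nocodazole, a mitotic blocker, at 100 ng/ml from 42 h after isolation for 6 h, were sorted as EGFP+, went back into culture for 1.5 h and were sorted again for early G1. The deposited name of early G1 replicate 1 gives a release of 1 h instead, and which holds is unknown. Nocodazole, release and sorting belong to the early G1 group only and cannot be told apart from the phase. Mouse ages are not given in the sources used here, nor is it said whether the replicates were different mice or cultures, and the p-values therefore cover no more than the differences among these libraries, possibly technical ones. Cell type markers could not be placed without gene names and were not checked.

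A region of convergent transcription carries nascent RNA of both strands over the same DNA. Its deposited signal behaves as the geometric mean of the 2 strands' read counts, divided by length and by a constant of the library. "Reads" below means that geometric mean, recovered from the signal. Libraries held 10708 to 12768 regions, and the inferred library sizes were 14720000 and 13480000 reads for unsynchronized replicates 1 and 2 but 8170000 and 9520000 reads for those of early G1. Depth therefore moved with the group, and its part in the results was not tested. In the windows, a call rested on 7 to 4897 reads, with library medians of 113 to 193. Signals ran from 2.14 to 102.7, and none was 0. Of the 34 regions, 9 were called in all 4 libraries (26.5%, against 24.6% of all merged regions), 9 in 3 libraries, 6 in 2 and 10 in 1 (29.4%, against 39.9%). Over these windows, 0 regions were called in both unsynchronized libraries and neither early G1 library (series 4.98%), and 1 was called in both early G1 libraries alone (series 3.70%). With 34 regions, neither count stands apart from those shares.

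**Figure D1:**
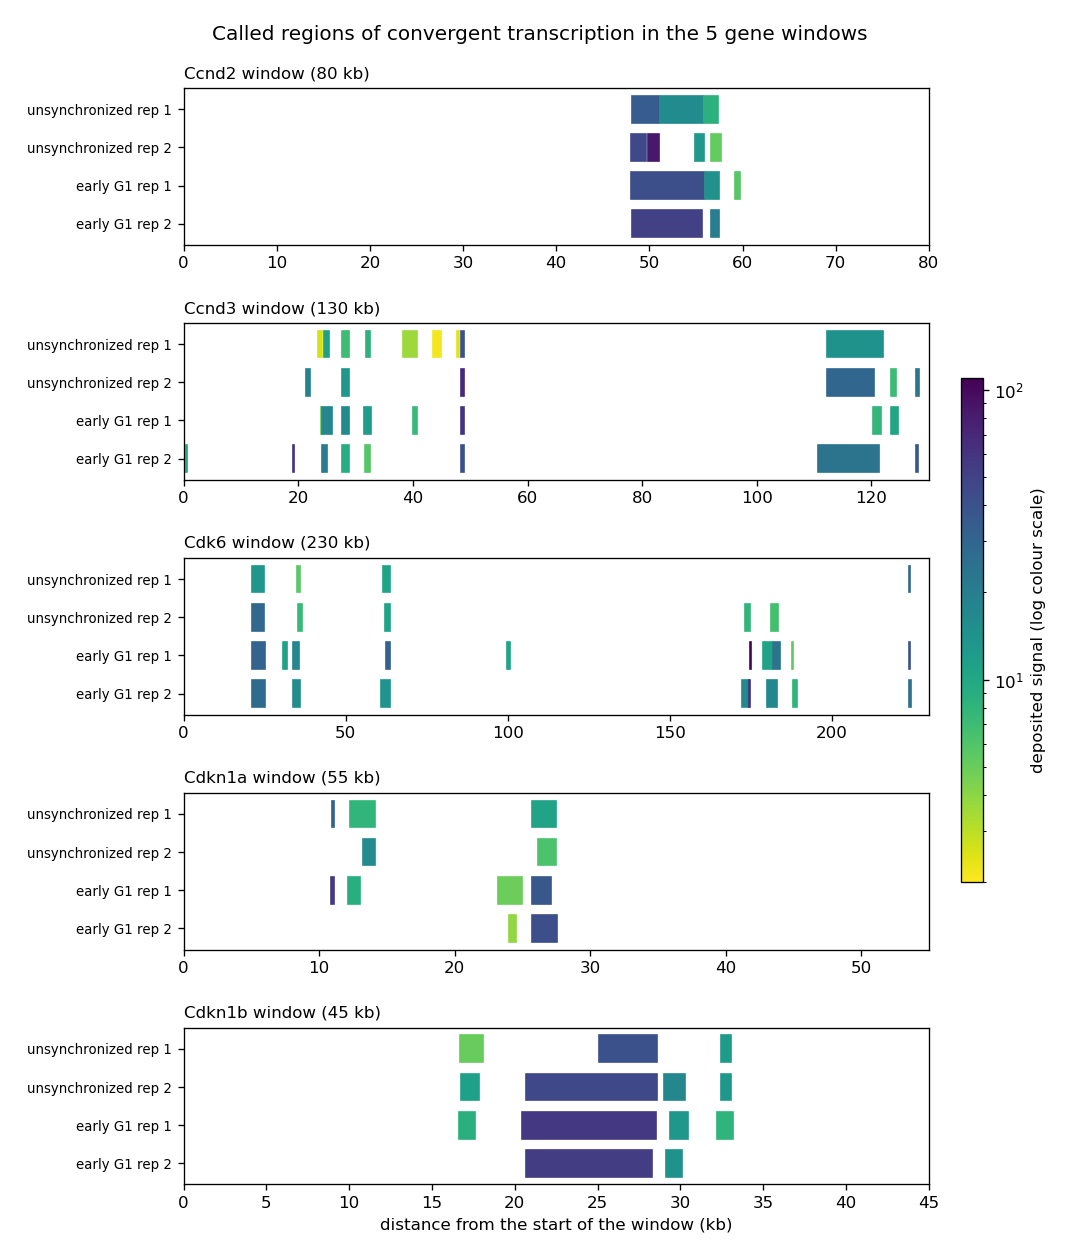
Called regions in the 5 windows, drawn to scale against distance from the window's start in kb, with 1 row per library and the deposited signal as colour on a log scale (outlines keep short regions visible). The Cdk6 window holds 10 and 8 calls in the early G1 libraries against 4 and 5 in the unsynchronized libraries. Whole libraries hold 12768 and 10708 against 12538 and 11961. In each early G1 library, 2 of the Cdk6 calls are parts of 1 merged region. The long Ccnd3 region near 110.6 kb is short in early G1 replicate 1.

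The sequences before the annotated starts are shown for Cdkn1a, Cdk6 and Cdkn1b, the loci where the groups did not overlap in a region called in all 4 libraries, with early G1 above. They come from RefSeq on GRCm38.p6, plus strand, and cover the 250 bases before each start. Of the 5 genes, 4 had an entry in the table. Since the regions are in mm9, their distance from these starts was not determined. Capitals mark matches to any of 4 motifs, each searched on both strands, and none of the matches shown overlap. The GC box was searched as GGGCGG. The TATA box, which binds the basal machinery, was searched as TATAAA and the CCAAT box by its name. The last motif, a pair of CATG cores that lie 6 bases apart as in a p53 response element, was added after the sequences had been seen.
Cdkn1a first start, chr17:29090729-29090978: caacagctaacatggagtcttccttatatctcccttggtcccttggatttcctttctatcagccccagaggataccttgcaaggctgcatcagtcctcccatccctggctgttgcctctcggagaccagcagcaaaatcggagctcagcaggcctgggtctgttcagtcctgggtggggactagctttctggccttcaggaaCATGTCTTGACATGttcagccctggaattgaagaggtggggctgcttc
Cdkn1a second start, chr17:29093519-29093768: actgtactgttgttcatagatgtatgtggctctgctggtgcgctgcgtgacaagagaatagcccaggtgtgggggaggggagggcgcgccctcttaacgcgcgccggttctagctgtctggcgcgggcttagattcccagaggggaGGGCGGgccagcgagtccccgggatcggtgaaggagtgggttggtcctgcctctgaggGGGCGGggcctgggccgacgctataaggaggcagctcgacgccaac
Cdk6, chr5:3343643-3343892: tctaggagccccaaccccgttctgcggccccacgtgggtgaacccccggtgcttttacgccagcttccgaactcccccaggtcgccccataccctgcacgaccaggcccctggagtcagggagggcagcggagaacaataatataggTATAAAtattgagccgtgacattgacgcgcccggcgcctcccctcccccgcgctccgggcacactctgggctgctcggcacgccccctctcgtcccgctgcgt
Cdkn1b, chr6:134920151-134920400: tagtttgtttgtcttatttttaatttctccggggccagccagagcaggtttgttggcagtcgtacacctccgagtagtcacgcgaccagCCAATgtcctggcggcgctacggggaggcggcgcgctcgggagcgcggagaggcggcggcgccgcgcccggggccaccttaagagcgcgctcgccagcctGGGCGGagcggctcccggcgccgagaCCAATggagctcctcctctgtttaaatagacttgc

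The starts of Cdkn1a differ in these letters. The first holds the CATG pair, found in 0.490% of the 32851 promoters of the table, and only 2 CG dinucleotides, against a median of 6. The second holds 2 GC boxes, a motif in 32.7% of all promoters, and 19 CG dinucleotides. Cdk6 has a TATA box (12.4% of all promoters), which begins 103 bases before the start, and 22 CG dinucleotides. Cdkn1b has 1 GC box, 2 CCAAT boxes (33.8% of all promoters) and 28 CG dinucleotides, more than 92.4% of all promoters. At Ccnd3, both starts in the table hold a GC box, 2 matches at the first and 1 at the second. A match is a description of letters, and none of the 4 E2F spellings searched (TTTCCCGC, TTTGGCGC, TTTCGCGC and TTTGCCGC, in 1.86% of all promoters) was present before these starts.

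The first comparison asked whether the level differed between the groups in the 9 regions that every library held. None of the 9 passed the test (limma on log2(signal + 1) across all 4972 regions called in all 4 libraries, Benjamini-Hochberg adjusted p under 0.05), against 0.342% of all such regions (0.302% higher and 0.0402% lower in early G1). Without adjustment, 2 of 9 were higher at p under 0.05, at Cdkn1a and Cdk6, against 13.9% of all. The log2 changes, early G1 minus unsynchronized, were above 0 in 7 regions and below 0 in 2, both at Ccnd3. All 4972 regions called in every library, termed shared regions, had a median of 0.41 with 78.0% above 0, and the 9 had a median of 0.54. Over the 12119 regions called in at least 2 libraries the median was 0.28, with each missing call set to its library's lowest signal. That value therefore rests partly on filled-in signals. The general shift of the shared regions is part of every value given here. In these bulk nuclei, a change in the share of cells that transcribe a locus and one in transcription per cell cannot be told apart. With each library scaled to its own median, 5 of the 9 were above 0 (48.0% of all) and the medians were 0.10 and -0.03. In 4 of the 9 both early G1 libraries lay above both unsynchronized libraries, against 43.9% of all shared regions. The reverse order was seen in 0 of the 9, against 4.67% of all.

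**Figure D2:**
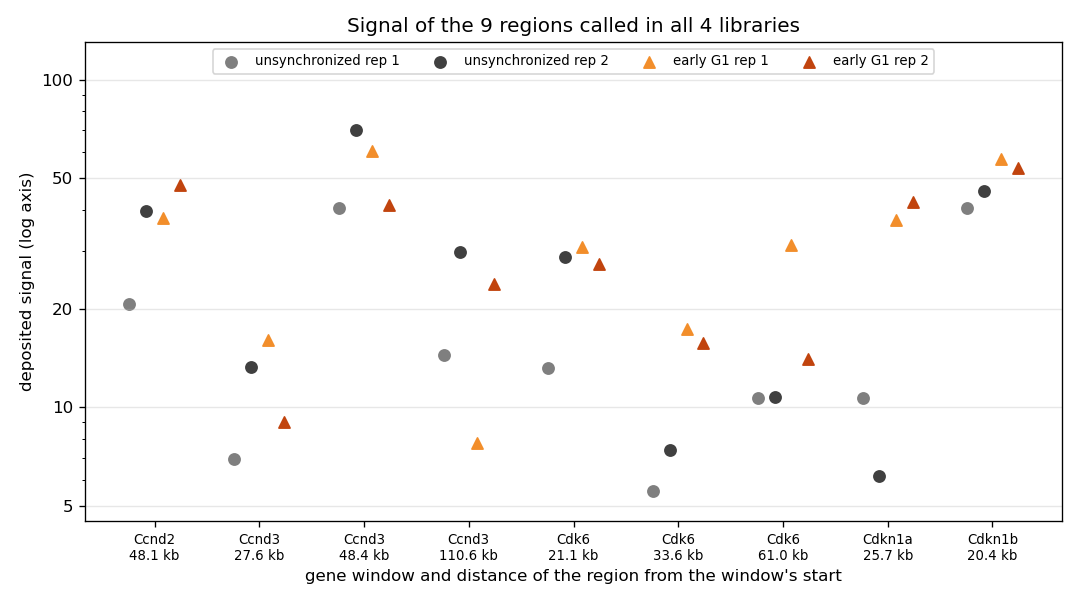
Deposited signal (log axis) of the 9 regions called in all 4 libraries, by library, labelled by gene window and distance from its start in kb. The Cdkn1a region separates the groups most widely, at 6.18 and 10.7 against 37.3 and 42.2, while the 3 Ccnd3 regions overlap between groups.

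Among the inhibitors, Cdkn1a had the largest difference of the 9 regions. The region chr17:29230695-29232517 had a signal of 10.7 and 6.18 in unsynchronized replicates 1 and 2 and of 37.3 and 42.2 in early G1 replicates 1 and 2. Both early G1 libraries were thus above both unsynchronized libraries. The means were 8.45 ± 3.21 and 39.8 ± 3.45 (SD, n = 2), a 4.71-fold difference. The log2 change was 2.15 (SE 0.44, 95% interval 1.21 to 3.09) with a limma adjusted p of 0.059, which missed the threshold, and 1.74 beyond the median of all shared regions. By unadjusted p it ranked 18th of 4972, where 17 regions passed, and by log2 change it ranked 37th. The reads behind it were 285 and 115 against 438 and 733, so counting error was at least 2.61% to 6.58% of a library's signal. Early G1 reads were the higher ones before scaling too, although those libraries were the smaller by inference. Called lengths were alike, at 1806 and 1387 bp against 1436 and 1823 bp.

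Whether the Cdkn1a region passed depended on the settings. It passed with a pseudocount of 10 (limma adjusted p = 0.049), above a mean-signal minimum of 8.51 (0.045) and among the 1972 regions of similar called length (0.00048). The shares of all tested regions that passed as higher under these settings were 0.422%, 0.376% and 3.6%, against 0.302%. It did not after median scaling (0.38), for signal times length (0.31) or with regions merged within 1 kb, where the log2 change was 1.52 (0.23). Over these and the other alternatives with all libraries the limma adjusted p ranged from 0.00048 to 0.49. It was 0.024 and 0.031 without early G1 replicate 1 or 2, fits in which 0.965% and 2.25% of all passed as higher, and 0.085 and 0.33 without unsynchronized replicate 1 or 2.

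The other Cdkn1a regions were not called in all libraries. Next to the shared region, toward the window's start, chr17:29228200-29229977 was the single member called in both early G1 libraries alone (series 3.70%). Its signals there were low, 4.90 and 3.91 on 71 and 22 reads. Further along in that direction, chr17:29217147-29219154 had signals of 8.02 and 16.3 in the unsynchronized libraries and 8.72 in early G1 replicate 1, with no call in replicate 2. The short region chr17:29215897-29216088 was called in unsynchronized replicate 1 at 31.2 and in early G1 replicate 1 at 55.9. The shared region made up 51.3% and 35.8% of the window's summed signal in unsynchronized cells but 66.6% and 97.1% in early G1 cells.

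Cdkn1b carried one of the strongest and longest regions of the set. At chr6:134870427-134878605 the signal was 40.6 and 45.9 in unsynchronized replicates 1 and 2 and 57.1 and 53.9 in early G1 replicates 1 and 2. The groups did not overlap, but the step between them was small, with means of 43.2 ± 3.72 and 55.5 ± 2.30 (SD, n = 2). The log2 change of 0.36 (SE 0.40, 95% interval -0.50 to 1.21, limma adjusted p = 0.67) lay 0.06 below the median of all shared regions, and it was -0.10 after median scaling. Called length set unsynchronized replicate 1 apart: it held 3479 bp and lacked a call over the first 4666 bp, whereas the other libraries held 7560 to 8079 bp. Reads were 2079 in that library and 3768 to 4897 in the others.

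The 3 flanking Cdkn1b regions were weaker. At chr6:134866661-134868084 the signals were 5.08 and 11.4 in unsynchronized cells and 8.66 in early G1 replicate 1. At chr6:134882181-134883156 they were 12.2 and 13.1 against 8.09 in early G1 replicate 1. Neither was called in early G1 replicate 2. At chr6:134879011-134880440 unsynchronized replicate 2 had 17.1 and the early G1 libraries 13.1 and 14.3, with no call in unsynchronized replicate 1.

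For the kinase Cdk6, 3 regions were called in all libraries. Their values order differently. At chr5:3341115-3345135, the longest of the 3, the signal was 13.2 and 28.7 in the unsynchronized libraries, against 30.9 and 27.4 in the early G1 libraries. Unsynchronized replicate 2 lay between the early G1 libraries, so the groups overlapped, and the log2 change was 0.55 (SE 0.46, 95% interval -0.42 to 1.53, limma adjusted p = 0.57). Dropping unsynchronized replicate 1 gave 0.02, and dropping replicate 2 of that group gave 1.09. At chr5:3353619-3356384 the signal was 5.56 and 7.41 against 17.3 and 15.8. Here the groups did not overlap. The 2.55-fold difference of the means, 6.49 ± 1.31 and 16.6 ± 1.11 (SD, n = 2), gave 1.24 on the log2 scale (SE 0.50, 95% interval 0.18 to 2.30, limma adjusted p = 0.28). Its called length was also greater in early G1, 979 and 1129 bp against 2134 and 2038 bp, and reads were 80 and 113 against 302 and 306. At chr5:3381017-3383766 the signal was 10.7 and 10.8 against 31.2 and 14.0. Reads were 354 and 255 against 346 and 363 and overlapped. Early G1 replicate 1 held the shortest call there, and the log2 change of 0.91 (SE 0.48, limma adjusted p = 0.39) fell to 0.36 without it.

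In the distal part of the Cdk6 window, 2 regions were called in unsynchronized replicate 2 and both early G1 libraries. The region chr5:3498883-3504072 covered 4950 and 2940 bp in the early G1 libraries, at signals of 16.8 and 17.0 on 681 and 476 reads. Unsynchronized replicate 2 covered 2175 bp at 6.59 on 193 reads, and replicate 1 had no call. At chr5:3492318-3494999 the early G1 libraries had signals of 103 and 22.9 on 227 and 2549 bp, so that their reads, 190 and 556, ran in the opposite order. Unsynchronized replicate 2 had 7.94 on 1431 bp and 153 reads there, and replicate 1 again had no call. The most distal region, chr5:3543829-3544535, falls outside the naming rule and went another way. Unsynchronized replicate 1 had 27.9 on 273 bp there, between the early G1 signals of 39.3 on 260 bp and 24.6 on 693 bp. The region was not called in unsynchronized replicate 2. Regions called in 1 library made up 4 of the 10 in this window, against 39.9% of the series, and all 4 were early G1 calls, a kind that is 20.6% of the series. The longest of them, chr5:3350825-3352040, had a signal of 10.9 in early G1 replicate 1. A region without a call may still be transcribed.

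The cyclin Ccnd2 had its signal in a single block. The region chr6:127098075-127107676 held 99.0% to 100% of the window's summed signal in every library. Its length-weighted signal was 20.7 and 39.8 in the unsynchronized libraries, against 37.8 and 47.6 in the early G1 libraries. Unsynchronized replicate 2 lay between the early G1 libraries, so the groups overlapped in this density. The log2 change was 0.54 (SE 0.44, 95% interval -0.40 to 1.49, limma adjusted p = 0.56), against the median of 0.41 for all shared regions. Leaving out the first or the second unsynchronized library moved it to 0.09 or 0.999, and signal times length gave 0.97. The block was split differently in each library. Unsynchronized replicate 2 left 3787 bp in its middle without a call and covered 4853 bp, against 8454 to 9247 bp elsewhere, and its highest part had a signal of 84.4 over 1198 bp. In early G1 cells one continuous call of 7745 and 7583 bp, at 42.3 and 50.7, covered that stretch. Unsynchronized replicate 1 covered most of the stretch too, by a call of 4612 bp at 16.2. Beside the block, chr6:127109156-127109751 was called in early G1 replicate 1 alone, at 5.72 on 28 reads.

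The cyclin Ccnd3 had the most regions and no separation of the groups. The short region chr17:47668430-47668890 had signals of 40.5 and 70.0 in the unsynchronized libraries, against 60.7 and 41.5 in the early G1 libraries, and its log2 change was -0.08 (SE 0.44, 95% interval -1.02 to 0.85, limma adjusted p = 0.94). Its called length varied little, from 400 to 461 bp. At chr17:47647649-47648918 the signals were 6.97 and 13.3 against 16.0 and 9.02, and the log2 change of 0.29 (SE 0.53, limma adjusted p = 0.80) reversed to -0.13 after median scaling. In both regions each group held a low and a high library. The spread between replicates exceeded the difference between group means in each.

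The value of the long Ccnd3 region moved with single libraries. At chr17:47730588-47741959 the signal was 14.4 and 29.8 in the unsynchronized libraries, against 7.81 and 23.9 in the early G1 libraries, with a log2 change of -0.56 (SE 0.54, 95% interval -1.71 to 0.59, limma adjusted p = 0.62). Early G1 replicate 1 held 1514 bp and 97 reads there, against 8229 to 10764 bp and 2076 to 3307 reads in the other 3 libraries. Without that library the change was 0.19, without early G1 replicate 2 it was -1.31, and without unsynchronized replicate 1 or 2 it was -1.06 or -0.06. Of the regions not shared by all libraries, chr17:47658214-47660772 had 3.60 in unsynchronized and 7.35 in early G1 replicate 1. At chr17:47644119-47645912 the signal was 11.3 in unsynchronized replicate 1 and 17.1 and 20.9 in early G1 cells. The region chr17:47663477-47664832 was called in unsynchronized replicate 1 alone, at 2.14. The strongest single-library call, chr17:47638999-47639255 at 63.6 in early G1 replicate 2, falls outside the naming rule and was chosen after its value was seen.

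**Figure D3:**
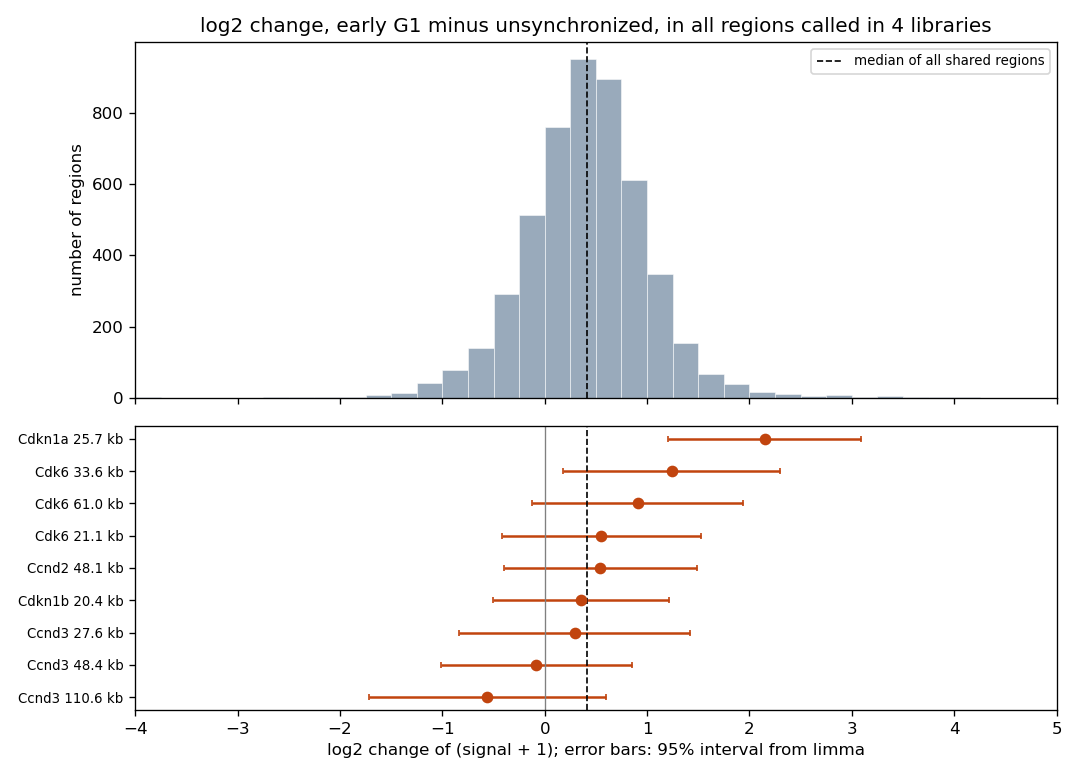
The upper panel counts all 4972 regions called in 4 libraries by log2 change, early G1 minus unsynchronized (1 region above 5 is outside the axis), with their median of 0.41 dashed. The lower panel gives the 9 regions of the gene windows with 95% intervals from limma: the Cdkn1a and the middle Cdk6 interval exclude 0, before adjustment for the number of regions, and the interval of Cdkn1a alone lies wholly above the dashed median.

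The second comparison took each window as a whole, as signal times called length summed over its regions. A region without a call adds 0, so called length and the mean signal are given beside it. Exact two-sided permutation tests of 2 against 2 libraries cannot go below p = 0.333, so no window could pass the threshold. The Ccnd2 window summed to 189 and 193 signal x kb in the unsynchronized libraries, against 353 and 402 in early G1. Their means, 191 ± 2.88 and 378 ± 34.7 (SD, n = 2), differed 1.98-fold (exact permutation p = 0.333). Called length in the window overlapped between groups, at 9124 and 4853 bp against 9843 and 8454 bp, and so did mean signal. In unsynchronized cells one library was long and weak and the other short and strong.

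The Cdk6 window summed to 84.0 and 155 signal x kb in the unsynchronized libraries, against 343 and 312 in early G1, 2.74-fold by the means of 120 ± 50.4 and 328 ± 22.2 (SD, n = 2, exact permutation p = 0.333). It was the only one of the 5 windows whose groups were separate in both called length and mean signal. The sum is the product of these, so its separation follows from theirs. How often both are separate over the series was not computed. By called length alone, 14.9% of 3938 tiles of 100 kb were separate with early G1 higher. Those tiles held a call in every library and were not matched to this window. Called length was 7075 and 10056 bp against 15172 and 15973 bp, and mean signal 11.9 and 15.5 against 22.6 and 19.5. As a share of a library's called length it was 317 and 542 bp per Mb against 788 and 1027. The first Cdk6 region made up 55.9% and 65.9% of the window's signal in the unsynchronized libraries, but 36.2% and 34.4% in early G1.

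The Cdkn1a window summed to 37.7 and 23.9 signal x kb in the unsynchronized libraries, against 80.6 and 79.3 in early G1, with means of 30.8 ± 9.76 and 79.9 ± 0.90 (SD, n = 2, 2.59-fold, exact permutation p = 0.333). Called length overlapped, at 3753 and 2330 bp against 4286 and 2412 bp. The Cdkn1b window summed to 156 and 405 against 491 and 421. These groups were separate by little, since unsynchronized replicate 2 lay close to early G1 replicate 2. The means of 280 ± 177 and 456 ± 49.6 (SD, n = 2, 1.63-fold, exact permutation p = 0.333) differed by less than the SD of the unsynchronized pair. The Ccnd3 window summed to 195 and 320 against 121 and 343, and its groups overlapped (means 257 ± 88.3 and 232 ± 157, SD, n = 2, exact permutation p = 1). The early G1 libraries were thus the higher ones in 4 of 5 windows by summed signal and in 1 of 5 by called length. Of 3938 tiles of 100 kb with a call in every library, 37.2% and 14.9% were. By mean signal the early G1 libraries were the higher ones at Cdk6, Cdkn1a and Cdkn1b, and the share of tiles was not computed. The tiles were not matched to the windows, which run from 45 to 230 kb. Shared regions in the windows were also longer, with a median of 2766 bp against 1641 bp over all shared regions. The shares are therefore a rough background only. The Cdkn1b groups overlapped under each of 3 other scalings, which left Ccnd2, Cdk6 and Cdkn1a, 3 of 5 windows. The share of tiles was then 18.7% with median scaling, 12.7% for unscaled reads and 21.3% for shares of the library's total signal.

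**Figure D4:**
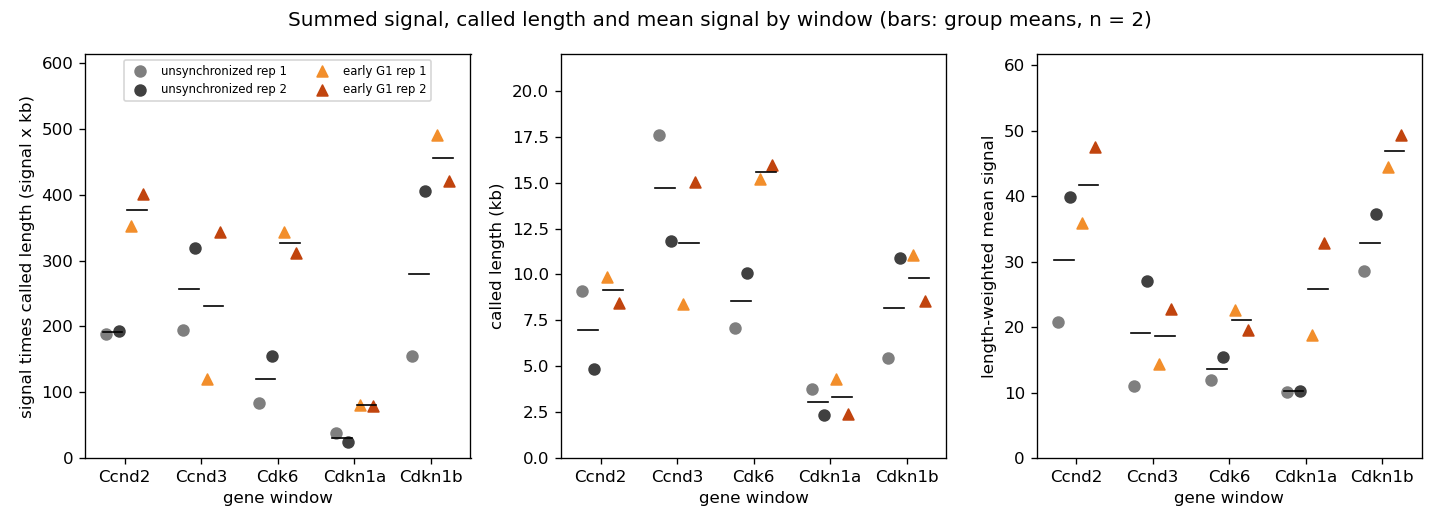
Summed signal times called length (signal x kb), called length (kb) and length-weighted mean signal for the 5 windows, with each library as a point and group means (n = 2) as bars. The Cdk6 window separates the groups in called length and mean signal, and so also in their product, while Ccnd3 overlaps in each panel. The share of the series with both separate was not computed.

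Mean signal covers called bases only, in windows that may hold parts of neighbouring genes, so it need not follow a gene's own level. By it, the windows ordered as Cdkn1b (32.9 ± 6.13), Ccnd2 (30.3 ± 13.5), Ccnd3 (19.1 ± 11.3), Cdk6 (13.7 ± 2.53) and Cdkn1a (10.2 ± 0.16, SD, n = 2) in unsynchronized cells. Neighbours in this order overlapped between libraries, except Cdk6 and Cdkn1a. In early G1 cells the order was Cdkn1b (46.9 ± 3.45), Ccnd2 (41.7 ± 8.27), Cdkn1a (25.8 ± 9.95), Cdk6 (21.1 ± 2.19) and Ccnd3 (18.6 ± 5.94, SD, n = 2). Only Ccnd2 and Cdkn1a were separate neighbours there, with 35.9 and 47.6 against 18.8 and 32.9. Cdkn1a was the lowest window in unsynchronized cells by mean and the third in early G1 cells. Its early G1 values rested on 4 calls in replicate 1 (18.8) and 2 in replicate 2 (32.9). Whether the rank moved with the regions called was not tested. No gene could be named as most alike in pattern, and other genes of the G1 pathway could not be placed, because the lists name no genes.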

How the data were processed

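Global run-on sequencing of activated mouse B cells was analysed from 4 deposited region lists, 2 of unsynchronized and 2 of early G1 cells, grouped by sample title. Per the file headers, the authors listed regions of convergent transcription for each library, with a signal that the file names call a geometric mean. Build mm9, BWA 0.7.12 and HOMER are named by the submitters' processing notes. The method of region calling and scaling was not stated in the labels or headers used here. In the deposited signal, the square of signal times length was a whole multiple of 1 constant per library (100% of 2164 to 3384 regions with multiples below 5000, tolerance 0.1), from which reads and library sizes were inferred on the assumption that the signal scales as RPKM does. Intervals of counting error cover counting only.

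Regions sharing at least 1 base were merged. A library's value is the length-weighted mean of its regions, or their sum of signal times length. Regions called in all 4 libraries were tested with limma 3.58.1 in R 4.3.3 (trend, two-sided, log2(signal + 1), which understates changes of low regions). The fit was checked on simulated data with less noise than these libraries, where the median SD was 0.39. That check does not give the power of the test here. Windows were compared by exact permutation tests. Named regions are all those called in all libraries and the 3 longest others of each window. A Cdk6 and a Ccnd3 region named besides these fall outside that rule. The windows and the lists were chosen with earlier results of these data known. Replicate numbers were not treated as pairs, since the labels do not say that they pair the libraries. The log2 difference between replicates 1 and 2 correlated at 0.10 between the groups, across the 4972 shared regions. Gene names came from a GRCm38 table and no coordinates were converted.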

Additional observations from a re-analysis of the deposited data

How the results depend on the processing

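The count of window regions passing as higher in early G1 (0 of 9) became 1, the Cdkn1a region, with a pseudocount of 10, with the mean-signal minimum and with similar called lengths, where 23 of 4972, 19 of 4783 and 71 of 1972 regions passed in either direction (17 of 4972 otherwise). It was 0 to 1 when a library was left out, and 1 without early G1 replicate 1 or 2, where the count over all 4972 regions rose to 68 and 119. Those fits assume that the lone library varies like the other group. It was 0 under the 8 other alternatives, and 0 passed as lower under any. With the replicate block the Cdkn1a adjusted p was 0.079 (limma), and the block changed no call in the windows. Cdkn1a kept its direction under all 15 alternatives. Single regions changed sign as follows. The Ccnd3 region at 47647649 went to -0.13 with median scaling and to -0.41 for unscaled reads. Leaving out 1 library gave -0.13 (unsynchronized replicate 1) to 0.71, with -0.09 without early G1 replicate 1. That at 47668430 went to 0.18 with merging within 1 kb, and ran from -0.47 to 0.30 when a library was left out, above 0 without unsynchronized or early G1 replicate 2. That at 47730588 ran from -1.31 to 0.19, above 0 only without early G1 replicate 1. The Cdkn1b region went to -0.10 with median scaling.

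The log2 change of summed signal, 0.98 at Ccnd2, 1.52 at Cdk6, 1.41 at Cdkn1a and 0.86 at Cdkn1b, was 0.52, 1.05, 0.95 and 0.39 with median scaling and 0.30, 0.84, 0.74 and 0.18 for unscaled reads. At Ccnd3 the log2 change was -0.30, with -0.76 under median scaling and -0.97 for unscaled reads. Another alternative, the share of the library's total signal, was chosen after seeing the data. It gave 0.59 at Ccnd2, 1.13 at Cdk6, 1.02 at Cdkn1a, 0.47 at Cdkn1b and -0.68 at Ccnd3. At Cdkn1a the log2 change was 1.98 above the 25th percentile of all signals and 2.02 for regions over 1 kb. Without 1 library it ran from 0.89 to 1.07 at Ccnd2, 1.07 to 1.96 at Cdk6, 1.08 to 1.74 at Cdkn1a, 0.17 to 1.55 at Cdkn1b and -1.05 to 0.46 at Ccnd3. Ccnd3 changed sign to 0.06 without unsynchronized replicate 2 and to 0.46 without early G1 replicate 1. Called length differed by 2160 bp at Ccnd2 (24.5 to 4296 without 1 library), -2994 at Ccnd3 (-6325 to 337), 7007 at Cdk6 (5517 to 8498), 308 at Cdkn1a (-630 to 1245) and 1616 at Cdkn1b (-1108 to 4339). The negative value at Cdkn1b came without unsynchronized replicate 1, those at Cdkn1a without unsynchronized replicate 2 (-404) or early G1 replicate 1, and the positive one at Ccnd3 without early G1 replicate 1. At Cdk6 it was 9186 above the 25th percentile. Of the 34 regions, 9 were called in all libraries, but 5 when a call had to cover 50% of the merged region and 5 above the 25th percentile. Calls in both early G1 libraries alone went from 1 to 3 under each of these, and those in both unsynchronized libraries alone from 0 to 1 above the 25th percentile. The cause of these changes was not tested.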
